A study of Mus musculus with 321 samples.

Results

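The clustered protocadherin genes were followed through the open chromatin, histone islands and Tcf-1 binding sites of 2 kinds of mouse cell. Members were all genes on chromosome 18 whose symbol begins with Pcdha, Pcdhb or Pcdhg followed by a digit or by a, b or c. This rule gave 58 genes out of 17549 gene starts examined: 14 of the Pcdha sub-cluster, 22 of the Pcdhb sub-cluster and 22 of the Pcdhg sub-cluster. All but 1 are protein-coding in the RefSeq table, the exception being Pcdhgb8, a transcribed pseudogene. They lie in 911.589 kb at chr18:36930285-37841873 (GRCm38). Pcdha1 starts the array and Pcdhgc5 is the last to start in it.

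Clustered protocadherins are cell-surface recognition proteins best known from neurons, where each cell uses a small and largely random choice of them and so gains an identity that its own branches recognise. In the Pcdha and Pcdhg sub-clusters every variable first exon has its own promoter and is joined to constant exons shared by the whole sub-cluster, while Pcdhb genes are single exons. The promoters are known to be chosen with the help of CTCF and cohesin and to be silenced by DNA methylation and by SETDB1, which writes H3K9me3, a mark of condensed chromatin. The C-type genes Pcdhac1, Pcdhac2, Pcdhgc3, Pcdhgc4 and Pcdhgc5 lie at the ends of the Pcdha and Pcdhg arrays and are known to be used more uniformly than the other variable exons.

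The study asked how Tcf-1, a T lineage transcription factor, is tied to chromatin opening. ATAC-seq, which maps open chromatin by transposase insertion, was available for CD4+CD8+ (DP) thymocytes purified by FACS from mice: 2 libraries of WT (C56BL/6) and 2 of Tcf-1 KO (TCF-1-/- deltaVII). It was also available for NIH3T3, an established mouse fibroblast line of NIH/Swiss origin used at passages 8 to 12, in 4 libraries with an empty retrovirus (Empty RV) and 4 with a retrovirus that carries Tcf-1 (Tcf-1 RV). Islands of H3K9me3 and of H3K27me3, the mark of Polycomb repression, came from 2 libraries each of NIH3T3 cells with no retrovirus named, and Tcf-1 summits (single-base centres of binding) came from a list pooled from the Tcf-1 ChIP-seq of Tcf-1 RV cells. As models, NIH3T3 is a single line outside the T lineage into which Tcf-1 was forced, and the KO thymocytes are those that reach the DP stage without Tcf-1. In bulk libraries, a start open in few cells and a start weakly open in all cells cannot be told apart.

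The peak lists held 11171 to 30985 peaks in DP libraries and 22778 to 62639 in NIH3T3 libraries, and read depths were not in the files. The KO lists were shorter than the WT lists, with 11171 and 12209 entries against 23249 and 30985. Starts of 6 of 10 DP thymocyte markers, among them Cd4, Cd8a and Rag1, had a peak in both WT libraries, and none of the 10 had a peak in any NIH3T3 library. In both KO libraries 1 of the 10 had a peak (Ptcra). Rag1, Rag2 and Cd8b1 had one in 1 KO library, and the others, Cd4 and Cd8a included, in none. Of 10 fibroblast markers, 4 had a peak in all 4 Empty RV libraries and 8 in all 4 Tcf-1 RV libraries, Col1a2 and Twist1 in both sets, while 1 (Pdgfrb) had a peak in both WT libraries. Of 7 neuron markers, none was open in all 4 Empty RV libraries and 2 (Syp and Map2) were open in both WT libraries. In all 4 Tcf-1 RV libraries 1 was open (Snap25, also in 3 of Empty RV). Map2 and Tubb3 were open in some libraries of both NIH3T3 arms, and 4 of the 7 were open in no NIH3T3 library. Of 19 B cell, myeloid, erythroid and thymic epithelial markers, 1 start was open in both WT libraries, 1 in both KO libraries (Epcam) and 1 in all 4 Empty RV libraries (Cd68, also in 3 of Tcf-1 RV), while Csf1r and Lyz2 were open in some libraries of both NIH3T3 arms. File names tag the NIH3T3 ATAC libraries as day 2 (replicate numbers 1 and 2) or day 4 (numbers 3 and 4), a tag used here as a batch only. The name of the pooled summit list carries a day 2 tag, and its summits were set beside peaks of both tags. The labels do not say whether replicates are separate animals or cultures, and p-values therefore measure the spread between these libraries alone.

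In NIH3T3 cells large parts of the Pcdhb and Pcdhg arrays lay in H3K9me3, most of the Pcdha array did not, and little of the cluster lay in H3K27me3. H3K9me3 islands covered 42.2% of the cluster in replicate 1 and 43.6% in replicate 2, and H3K27me3 islands covered 1.73% and 1.80%. The difference of the means was 41.1 percentage points (42.9% ± 0.962 against 1.77% ± 0.0465, SD, n = 2 each). The exact permutation test gave p = 0.333, the smallest that 2 against 2 libraries allow (0.583 after adjustment over 14 tests). Both H3K9me3 values were above both H3K27me3 values, by far more than the gap between replicates.

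A start counted as marked where an island of both replicates covered its base. The H3K9me3 state held for 34 of 58 member starts (58.6%), where 6.44% of all starts examined were in such islands. No member start was in an H3K27me3 island of either replicate, against 12.1% of all starts in islands of both. The marked starts were unevenly spread, with 2 of 14 in Pcdha, 11 of 22 in Pcdhb and 21 of 22 in Pcdhg. Members in 1 island share its value, so the 34 starts stand for 6 islands and not for 34 measurements.

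**Figure D1:**
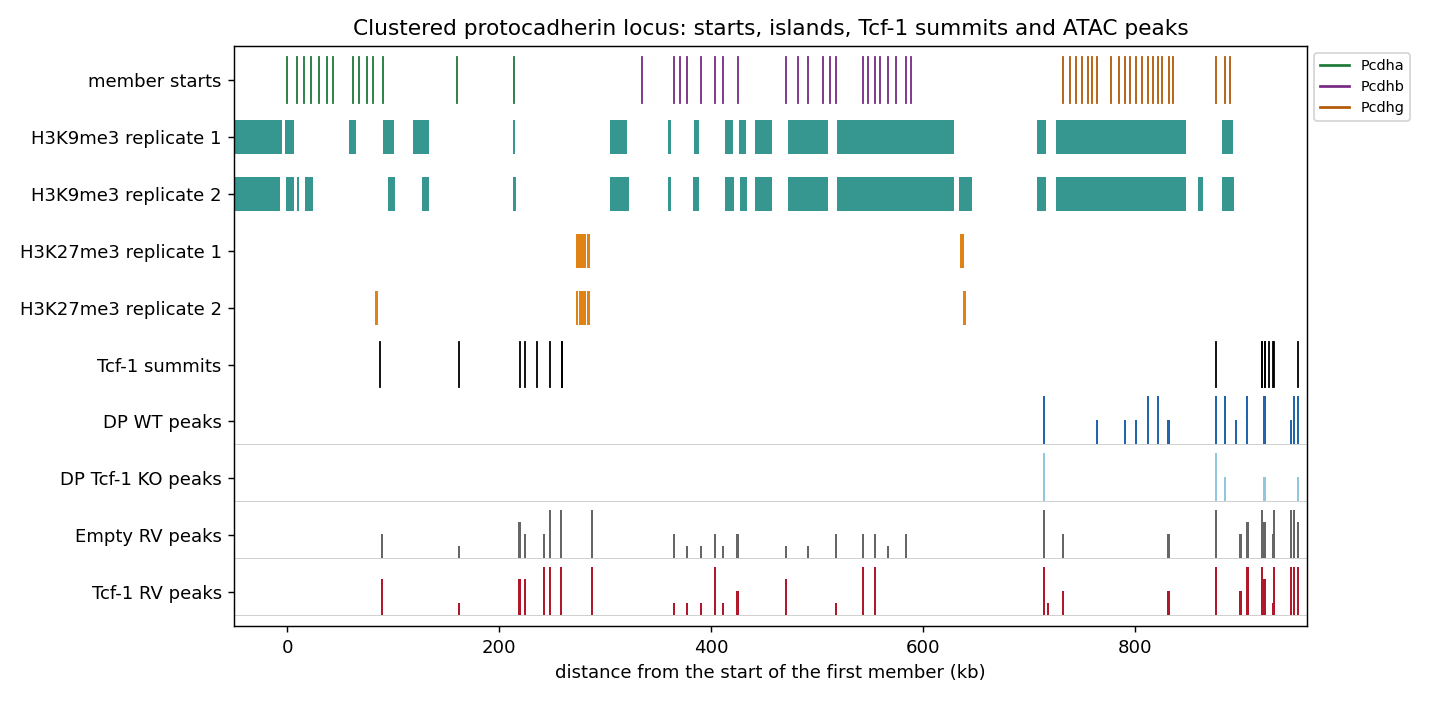
Map of the cluster in kb from the start of Pcdha1, with member starts coloured by sub-cluster, islands of each histone replicate, Tcf-1 summits, and ATAC peak regions whose bar height is the share of the group's libraries that hold them (bars drawn at least 2 kb wide). H3K9me3 fills 2 long stretches over the later Pcdhb genes and over Pcdhg, H3K27me3 sits in the gaps between sub-clusters apart from 1 island of replicate 2, and DP peaks are seen only from the gap before Pcdhg onward.

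The densest H3K9me3 lay over 2 stretches. An island of 111.2 kb at chr18:37448401-37559600 covered the starts of Pcdhb15 to Pcdhb22, the last 8 Pcdhb genes, and had the same borders in both replicates. Its fold over control, as the authors' files give it, was 5.88 in replicate 1 and 5.67 in replicate 2, and 1.37% and 1.26% of all islands had a higher fold. The other stretch began at chr18:37655601 and was 122.8 kb long in replicate 1 and 122.4 kb in replicate 2. It covered 19 starts, Pcdhga1 to Pcdhga12 with the Pcdhgb genes between them, at a fold of 5.85 and 5.84. Of the 1344 islands of at least 50 kb in replicate 1, 7 had a higher fold than the Pcdhb island and 9 had a higher fold than the Pcdhg island. In replicate 2 these numbers were 9 and 5 of 1443.

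The other marked starts lay in shorter islands of lower fold. Pcdhb10, Pcdhb11 and Pcdhb12 shared an island of 38.4 kb with a fold of 3.33 and 3.47 in the replicates. Pcdhgc4 and Pcdhgc5, a pair of C-type genes, shared an island at chr18:37812401-37822800 in replicate 1 with a fold of 4.56, and of 4.08 in replicate 2. Pcdhac2, the C-type gene at the end of the Pcdha array, had a narrow island of its own, 1.6 kb and 2.4 kb long, with a fold of 5.08 and 3.77. Pcdha1, the first gene of the array, was at 2.73 and 2.88. The islands of Pcdha2 (2.84) and Pcdha4 (2.14) were called in replicate 2 only and that of Pcdha8 (2.45) in replicate 1 only. Coverage followed the same order, at 15.2% and 12.1% of Pcdha, 58.3% and 58.7% of Pcdhb and 70.5% and 73.6% of Pcdhg.

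**Figure D2:**
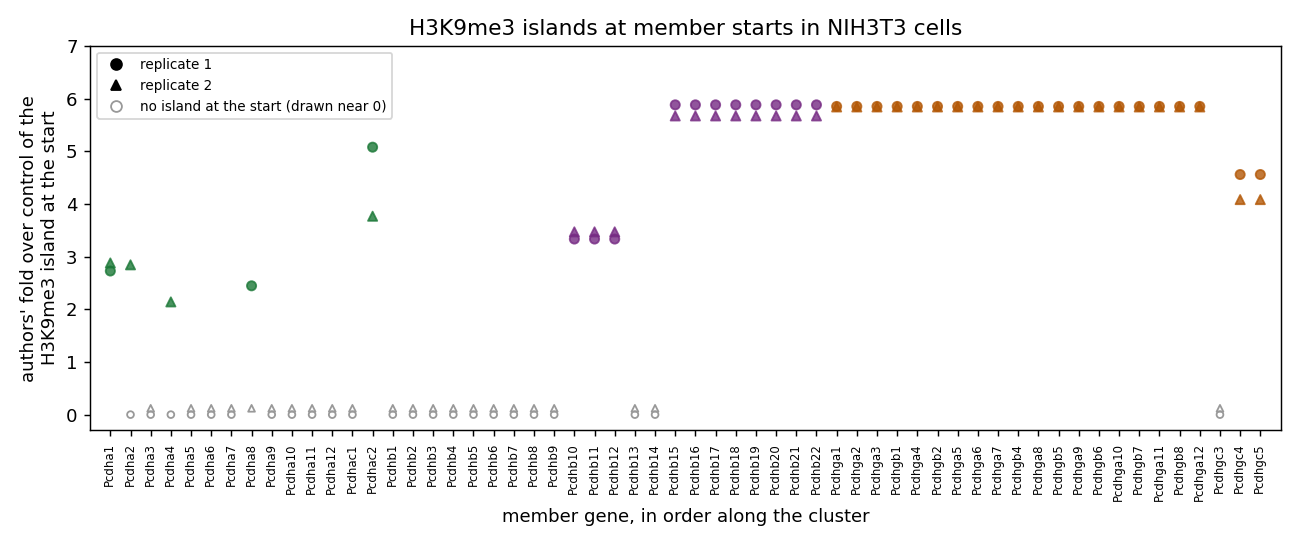
Fold over control of the H3K9me3 island at each member start, on a linear axis, for replicate 1 (circles) and replicate 2 (triangles), in order along the cluster. Values run from 2.14 to 5.88, the Pcdhb15 to Pcdhga12 starts form a plateau between 5.67 and 5.88, and Pcdhgc3 stands without an island between marked neighbours.

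Pcdhgc3 was the sole Pcdhg start outside H3K9me3, in the gap between the long Pcdhg island and that of Pcdhgc4. In Pcdha the exceptions ran the other way, with Pcdha1 and Pcdhac2 marked among 12 unmarked starts, Pcdhac1 included. The Pcdhb array was split along its length. Pcdhb1 to Pcdhb9 were all unmarked at the start and Pcdhb15 to Pcdhb22 all marked, while Pcdhb13 and Pcdhb14 between them were unmarked. At 4 of the unmarked Pcdhb starts the gene body was partly inside islands of both replicates. The island began 1099 and 1499 bp after the Pcdhb7 start in replicates 1 and 2, 1530 and 1930 bp after that of Pcdhb8, 1546 bp after that of Pcdhb9 in both and 744 bp after that of Pcdhb14 in both. Bodies of 15 of 22 Pcdhb genes were at least partly covered.

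The H3K27me3 islands, 3 in replicate 1 and 5 in replicate 2, covered no member start, and 1 of them, called in replicate 2 only, lay within Pcdha. The largest of replicate 1, at chr18:37203001-37212400, lay with another nearby between Pcdha and Pcdhb, and together they filled 15.5% of that gap of 76.1 kb, against 14.5% in replicate 2. Another lay between Pcdhb and Pcdhg in both replicates. Beyond the cluster the H3K9me3 mark was one-sided. The 50 kb before Pcdha1 were covered to 94.4% and 88.8%, and the 50 kb after the array had no island in either replicate.

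Open chromatin at member starts was rare in NIH3T3 cells, and the starts that were open were mostly Pcdhb genes. A start counted as open where a peak lay within 1 kb. In at least 1 of the 8 NIH3T3 libraries 17 of 58 starts were open (29.3%, against 48.4% of all starts), of which 13 were Pcdhb, 3 Pcdhg and 1 Pcdha. In all 4 Empty RV libraries 1 was open, Pcdhgc3 (1.72%, against 34%). In all 4 Tcf-1 RV libraries 4 were open, Pcdhb6, Pcdhb15, Pcdhb17 and Pcdhgc3 (6.9%, against 41.4%). The count of 17 fell to 7 when only peaks of at least 300 bp were used. It was 8 in the libraries tagged day 2 and 17 in those tagged day 4.

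The Pcdhb starts differed strongly from library to library. Empty RV replicates 1 to 4 had 0, 0, 8 and 12 open Pcdhb starts of 22, and Tcf-1 RV replicates 1 to 4 had 4, 3, 5 and 10. Both Empty RV libraries without any open Pcdhb start carry the day 2 tag and had 22778 and 34601 peaks in all. The arms overlapped, with means of 5.5 ± 3.11 for Tcf-1 RV and 5 ± 6 for Empty RV (SD, n = 4 each), and the exact permutation test gave p = 0.943 (1 after adjustment). Libraries tagged day 4 had 8.75 ± 2.99 open Pcdhb starts and those tagged day 2 had 1.75 ± 2.06 (n = 4 each, ranges 5 to 12 and 0 to 4 without overlap). This contrast was chosen after the values were seen. Its exact permutation p was 0.0286, the smallest possible for 4 against 4, and 0.4 after adjustment over the 14 tests. Limited to the 22778 widest peaks of each library, the day 2 libraries held no open Pcdhb start. The day 4 libraries held 3, 0, 1 and 0 in the order Empty RV 3, Empty RV 4, Tcf-1 RV 3 and Tcf-1 RV 4 (exact permutation p = 0.429). The narrowest peak kept was 322, 369, 278 and 398 bp in that order, but 200 bp in Empty RV replicate 1. Peaks at Pcdhb starts were at most 392 bp wide, so Tcf-1 RV replicate 4 could hold none under this limit. As the limit cut by width and unequally between libraries, the part of list length in the contrast was not tested.

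**Figure D3:**
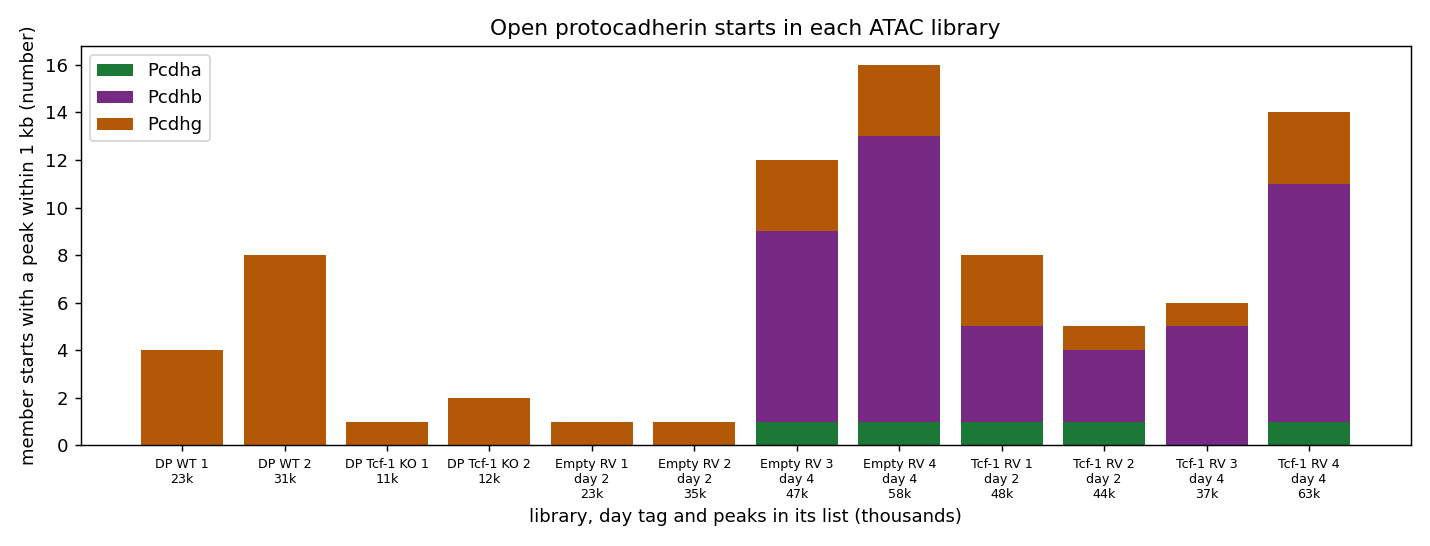
Number of member starts with an ATAC peak within 1 kb in each of the 12 libraries, stacked by sub-cluster, with the day tag and the length of each peak list under the bars. DP libraries show Pcdhg only (1 to 8 starts), and Pcdhb makes up 8 and 12 of the 12 and 16 open starts in Empty RV replicates 3 and 4 and none in Empty RV replicates 1 and 2.

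The same starts recurred. Pcdhb6, whose start was outside H3K9me3, had a peak in Empty RV replicates 3 and 4 and in all 4 Tcf-1 RV libraries. So did Pcdhb15 and Pcdhb17, both inside the 111.2 kb H3K9me3 island. The region at the Pcdhb15 start was chr18:37473381-37473773, and that at the Pcdhb17 start was chr18:37484789-37485182. Pcdhb9 was open in 1 library of Empty RV and 3 of Tcf-1 RV, Pcdhb8 in 2 and 2, Pcdhb2 and Pcdhb14 in 2 and 1, and Pcdhb4, Pcdhb5 and Pcdhb7 in 1 and 1. Pcdhb21 was open in 2 Empty RV libraries, and Pcdhb11 and Pcdhb19 in 1 each, with no Tcf-1 RV library. Of the 16 starts open in Empty RV replicate 4, 13 were also open in Tcf-1 RV replicate 4 (92.9% of its 14), and all 5 starts of Tcf-1 RV replicate 2 were among them.

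Outside Pcdhb the open starts in NIH3T3 were Pcdha12, Pcdhga1, Pcdhgb8 and Pcdhgc3. Pcdha12, the last of the Pcdha alternate exons, was open in 2 libraries of Empty RV and 3 of Tcf-1 RV and was the only open Pcdha start in any of the 12 libraries. Pcdhga1, the first gene of Pcdhg, and Pcdhgb8 were each open in 2 and 2. The remaining Pcdha starts, from Pcdha1 to Pcdha11 and the C-type Pcdhac1 and Pcdhac2, had no peak within 1 kb in any library. Pcdhb1, the first Pcdhb gene, and Pcdhb22, the last, also had none.

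Most peaks at the starts covered the start base. Over all 12 libraries 78 peaks lay within 1 kb of a member start and 70 of them covered it. The median over members of the distance from start to peak midpoint was 54.5 bp downstream. Peaks at Pcdhb starts were 200 to 392 bp wide, and the median width of all peaks of an NIH3T3 library was 290 to 335 bp. At Pcdhb5 no peak covered the start, and the midpoint lay 467.75 bp beyond it. Member genes are near-identical copies in places, and loss of reads that map to more than 1 copy was not tested.

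Some starts carried both H3K9me3 and an ATAC peak. Of the 34 marked members 7 had a peak in at least 1 NIH3T3 library (20.6%, against 10.6% of all 1131 marked starts), namely Pcdhb11, Pcdhb15, Pcdhb17, Pcdhb19, Pcdhb21, Pcdhga1 and Pcdhgb8. Of the 24 unmarked members 10 had one (41.7%, against 51% of all unmarked starts). Within Pcdhb the numbers were 5 of 11 marked and 8 of 11 unmarked starts. The islands and the peaks come from separate libraries, and whether both features of a start occur in the same cells was not tested.

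**Figure D4:**
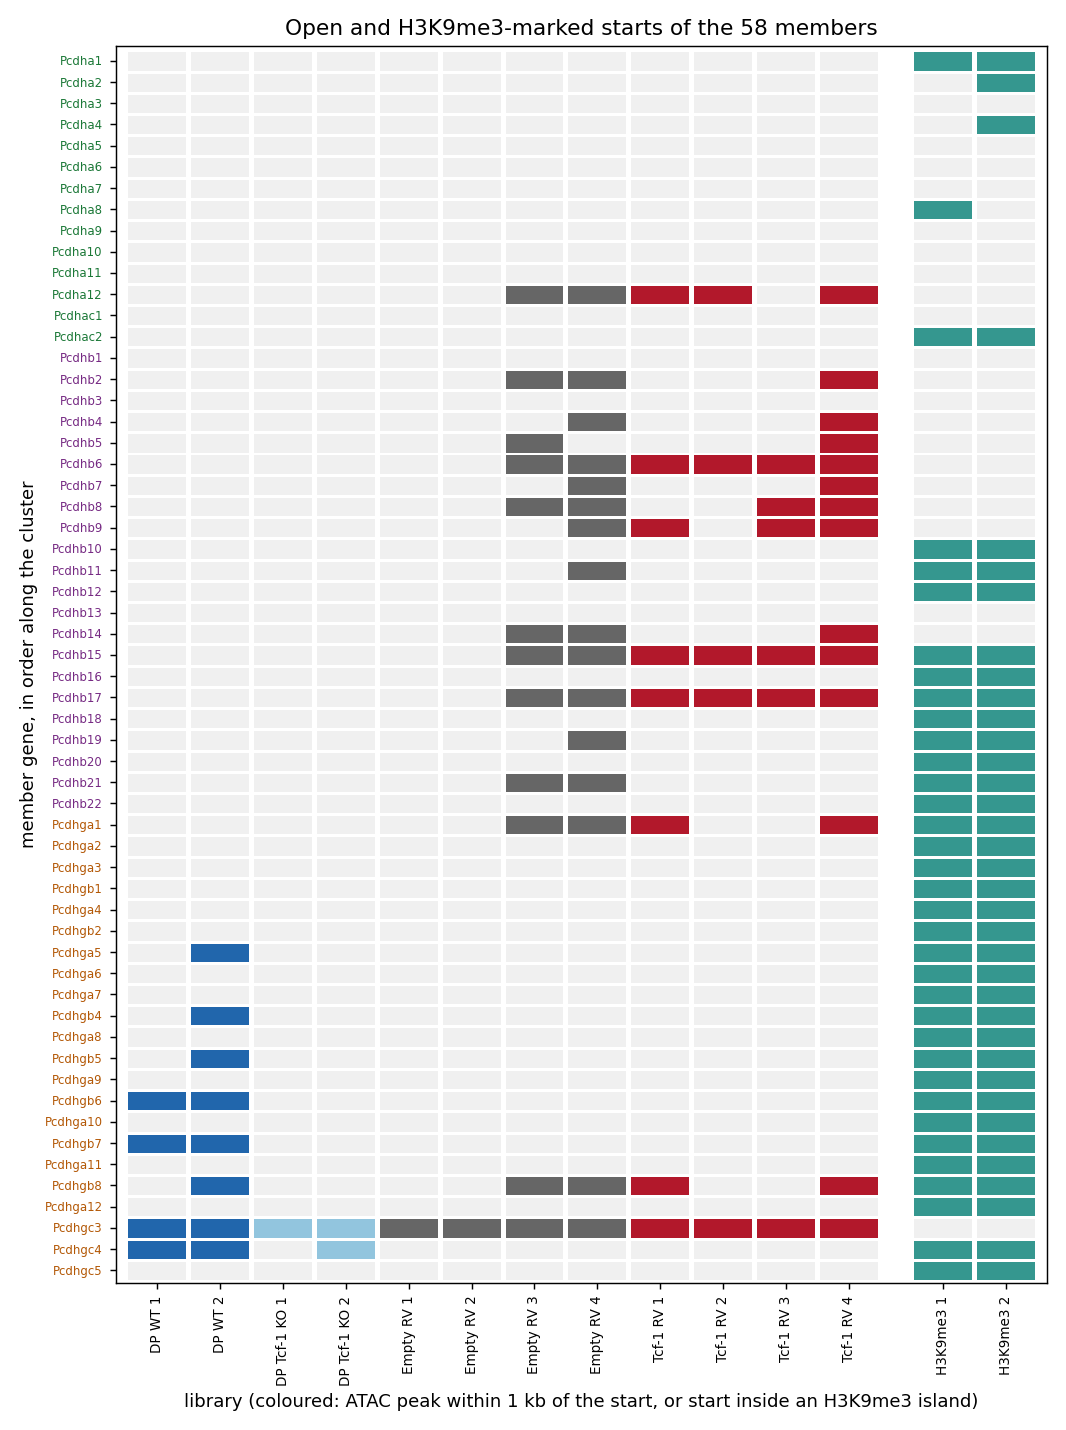
Each row is a member in order along the cluster and each column a library: coloured cells mark a peak within 1 kb of the start in the 12 ATAC libraries or a start inside an H3K9me3 island in the 2 rightmost columns. Open starts form a Pcdhb block in NIH3T3 libraries and a Pcdhg block in DP WT libraries, and Pcdhgc3 is open in all 12 libraries.

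In DP thymocytes the open starts were all Pcdhg. In both WT libraries 4 of 58 starts were open (6.9%, against 42.6% of all starts): Pcdhgb6, Pcdhgb7, Pcdhgc3 and Pcdhgc4. In at least 1 of the 4 DP libraries 8 were open (13.8%, against 47.5%), the other 4 being Pcdhga5, Pcdhgb4, Pcdhgb5 and Pcdhgb8, each in WT replicate 2 alone. By type, 5 of 7 Pcdhgb starts, 1 of 12 Pcdhga starts and 2 of 3 Pcdhgc starts were open, although Pcdhga and Pcdhgb genes alternate along the same stretch. All 4 starts of WT replicate 1 were among the 8 of replicate 2, which had the longer list. With peaks of at least 300 bp, 1 start was open in both WT libraries and 2 in any DP library, and without WT replicate 2 the count in any DP library was 4.

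The cell types shared little of their protocadherin openness. Open only in NIH3T3 were 15 (25.9%, against 7.14% of all starts), open only in DP cells 6 (10.3%, against 6.18%), open in both 2 (3.45%, against 41.3%) and open in neither 35 (60.3%, against 45.4%). The 2 shared starts were Pcdhgc3 and Pcdhgb8. The NIH3T3 lists held 22778 to 62639 peaks and the DP lists 11171 to 30985. With lists of widest peaks made equal within each cell type, 6 starts were open in any NIH3T3 library and 2 in any DP library. The part of list length in this split was not tested. The number of open Pcdhb starts was 5.25 ± 4.43 over 8 NIH3T3 libraries and 0 in each of 4 DP libraries. The exact permutation test gave p = 0.0606 (0.424 after adjustment), as Empty RV replicates 1 and 2 also had 0. For Pcdhg, the WT libraries had 4 and 8 open starts and the Empty RV libraries 1, 1, 3 and 3. The groups did not overlap, and the exact permutation p was 0.133, the smallest that 2 against 4 libraries allow (0.583 after adjustment).

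Fewer protocadherin starts were open in KO than in WT thymocytes. WT libraries had 4 and 8 open starts and KO libraries 1 and 2, with Pcdhgc3 open in both KO libraries and Pcdhgc4 in KO replicate 2. Over all starts examined, 42.8% and 46.9% were open in the WT libraries and 36.4% and 37.4% in the KO libraries. The groups did not overlap, and the difference of 4.5 starts had an exact permutation p of 0.333, the smallest possible (0.583 after adjustment). All other starts of the WT set, Pcdhgb6 and Pcdhgb7 included, had no KO peak. Peaks inside the cluster numbered 6 and 11 for WT, against 2 and 3 for KO. Per 10000 peaks of the library these were 2.58 and 3.55 in WT and 1.79 and 2.46 in KO, a difference of 0.942 (exact permutation p = 0.333, adjusted 0.583). Limited to the 11171 widest peaks of each library, this difference was 0, and with peaks of at least 300 bp it was -0.287. The direction thus rested on peaks narrower than that.

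Regions formed by merging the DP peaks were called lost where both WT libraries and no KO library held them. Of 11 DP regions in the cluster 3 were lost and 0 gained, against 31.7% lost and 0.142% gained of all 31628. They were the starts of Pcdhgb6 (chr18:37741957-37742254) and Pcdhgb7 (chr18:37751551-37751839) and chr18:37835408-37836016, a region 16166 bp past the Pcdhgc5 start and inside the bodies of Pcdhg genes. Of the 6 cluster regions held by both WT libraries, 3 were lost, where 45.7% of all 21952 such regions were. The count was 0 with lists of equal length and 8 without WT replicate 1.

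In NIH3T3 cells no region of the cluster was called changed between the arms over all 8 libraries. Of 30 merged NIH3T3 regions in it, 0 were held by all 4 Tcf-1 RV and no Empty RV libraries, against 1.08% of all 77882 regions, and 0 showed the reverse, against 0.11%. At such rates a count of 0 among 30 regions is near the background. The share of peaks in the cluster was 2.2, 2.60, 4.49 and 4.83 per 10000 in Empty RV replicates 1 to 4 and 3.36, 3.22, 3.83 and 4.15 in Tcf-1 RV. The Tcf-1 RV values lay inside the range of the Empty RV values. The difference was 0.112 (3.64 ± 0.430 against 3.53 ± 1.32, SD, n = 4 each), with an exact permutation p of 0.886 (1 after adjustment). With the replicate numbers taken as pairs, the sign-flip test, exact over 4 pairs, gave p = 1.

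**Figure D5:**
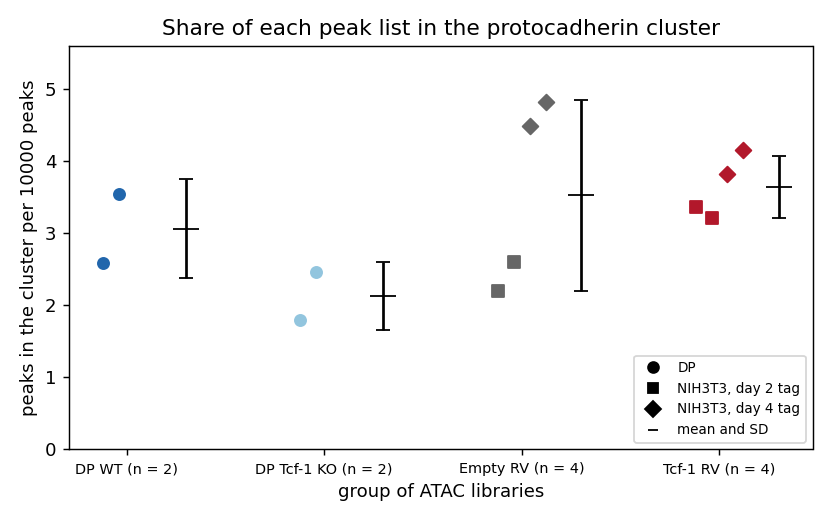
Peaks in the cluster per 10000 peaks of each library, by group, with points for libraries (squares day 2 tag, diamonds day 4 tag) and the mean with SD beside them. Empty RV libraries split by tag into 2.2 and 2.60 against 4.49 and 4.83, and Tcf-1 RV libraries run from 3.22 to 4.15.

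Within the tags the arms went in opposite directions. On day 2 Tcf-1 RV exceeded Empty RV by 0.890 per 10000 on average, and on day 4 it was below it, with a difference of -0.667 (exact permutation p = 0.333 each, the smallest that 2 against 2 libraries allow). Among the 17 merged day 2 regions in the cluster 4 were held by both Tcf-1 RV and no Empty RV libraries, against 17.7% of all 54513 day 2 regions. They lay at the starts of Pcdha12, Pcdhb6, Pcdhb15 and Pcdhb17. Among the 30 day 4 regions 1, at the Pcdhb21 start, was held by both Empty RV and no Tcf-1 RV libraries, against 3.46% of all. Over all day 2 regions, 0.717% were held by both Empty RV and no Tcf-1 RV libraries. Over all day 4 regions, 2.11% were held by both Tcf-1 RV and no Empty RV libraries. The balance between the arms thus also turned over all regions, and the cluster counts were near the shares over all. The Empty RV lists of day 2 were the shortest of the NIH3T3 lists, and the part of their length in these counts was not tested.

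The cluster held Tcf-1 summits at a density near the median of the genome. The pooled list held 9 summits in the cluster, 9.87 per Mb. The median over 2975 windows of the same length was 10 summits, with quartiles of 1 and 22, and 51.9% of windows had more. Of the 9, 6 lay within Pcdha, 2 between Pcdha and Pcdhb, 1 in Pcdhg and none in Pcdhb. The 50 kb before the cluster had 0 and the 50 kb after it had 8.

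Pcdhgc3 was the only member with a summit within 1 kb of its start (1.72% of members, against 11.8% of all starts). That summit lay at -129 bp from the start with the authors' score of 8.57, and 81.1% of summits in the list scored higher. The region around it, chr18:37806014-37806709, was open in all 12 libraries, KO thymocytes included. The strongest summit of the cluster was at chromosome 18 position 37149452, 5774 bp past the Pcdhac2 start, with a score of 77.9 (6.96% of summits higher). It lay in a region open in 3 libraries of each NIH3T3 arm. A summit at position 37178555 (score 20.8) lay in a region open in all 8 NIH3T3 libraries and in no DP library. Another at 37189122 (29.9) was inside a region open in all 8 as well, although its base was covered in 7 of them. No summit in the cluster was inside H3K9me3 islands of both replicates. Most of them, 6, lay within Pcdha, where H3K9me3 covered 15.2% and 12.1% in the replicates. The share of all summits inside such islands is not given here.

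Away from starts the cluster held 14 of its 37 merged regions over the 12 libraries, and 5 of these 14 held a summit. Of the 23 regions at starts 1 held one. For these counts and the next, shares over all merged regions are not given here. The 8 NIH3T3 lists held 22778 to 62639 peaks and the 4 DP lists 11171 to 30985. Regions held by NIH3T3 libraries only numbered 26 and by DP libraries only 7, and 2 were held by all 12. Besides the Pcdhgc3 start, the other shared region was chr18:37643763-37644501 at the upper end of Taf7, a gene for a subunit of the general transcription factor TFIID that lies between Pcdhb and Pcdhg. It was open in every library although it lay inside an H3K9me3 island of 8.4 kb in both replicates. Slc25a2, a mitochondrial transporter gene beside it, lay in the same island and had no peak at either end. The genes next to the cluster, Hars, Hars2 and Zmat2 before it and Diaph1, Hdac3 and Rell2 after it, each had 1 end open in all 12 libraries and no end in an island. The RefSeq readthrough genes Gm37013, Gm38666 and Gm38667, which overlap many members, are not counted as members and had no peak at either end.

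Lists of related genes elsewhere in the genome were read in the same way, beside shares over all starts of 42.6% open in both WT libraries, 34% open in all 4 Empty RV libraries, 6.44% in H3K9me3 and 12.1% in H3K27me3. Of 21 regulators of the cluster, such as Ctcf, Smc3 and Smchd1, 14 had an open start in both WT libraries and 12 in all 4 Empty RV libraries, and 1 (Atf7ip) was in H3K9me3. Of 13 non-clustered protocadherins, which are single genes, 2 were open in both WT libraries (Pcdh1 and Pcdh7) and 3 in all 4 Empty RV libraries (Pcdh17, Pcdh18 and Pcdh19). Pcdh10 and Pcdh15 were in H3K9me3 and none in H3K27me3. Of 10 classical cadherins, none was open in both WT or all 4 Empty RV libraries, 4 were in H3K9me3 and 4 in H3K27me3. Of 11 protocadherin partners in signalling, such as the kinase Ptk2 and the WAVE subunits Wasf1 and Nckap1, 8 were open in both WT libraries, 7 in all 4 Empty RV libraries, 0 in H3K9me3 and 3 in H3K27me3. Genes without a strand in the table were read at both ends, which can raise their counts above shares taken from a single start per gene. Among the cadherins, Cdh3, Cdh4 and Cdh13 in H3K9me3 and all of those in H3K27me3 were such genes. Starts other than the outermost were not examined, so a gene without a peak here may still have an open start elsewhere.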

How the data were processed

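The files were made by the authors: ATAC peak lists, histone islands and a pooled list of Tcf-1 summits. Per the submitters' processing notes, Bowtie2 2.2.9 and MACS2 were among the tools and GRCm38 among the builds. The deposited ATAC lists give positions only. The deposited island files, per the values and column layout of SICER, give read counts of ChIP and control, a p-value, a fold (ratio) over control and an adjusted p-value. The deposited summit list gives a score per summit. Members and lists were chosen with earlier results of these data known. Gene positions came from the RefSeq table (GRCm38.p6). Strand came from the promoter table for 17491 other genes. For members, which have none there, the lower coordinate was taken as the start, since Pcdha and Pcdhg genes share their upper ends. Exons were not given in the sources used here, and no sequence of this locus is printed. Peaks on unplaced sequences (293) were left out. Regions were peaks merged where they shared a base, a method tested on simulated data. Tests were exact two-sided permutation tests over libraries in scipy 1.17.1, with Benjamini-Hochberg adjustment over 14 tests. Named genes are the first and last of each sub-cluster, the C-type genes, all members with a peak or summit at the start, and those outside their sub-cluster's usual histone state, with neighbours. After removal of arm means, same-numbered NIH3T3 libraries correlated between arms (0.125 to 0.260 over regions). Other libraries of the same tag also correlated (0.0648 to 0.194), and same-numbered DP libraries gave -0.0505. The 14 tests used no pairs. Replicate numbers were taken as pairs in alternatives and in the differences by day tag only. Alternatives changed the window, span, peak width, list length, island threshold and libraries. RNA-seq and single-cell libraries were not analysed here.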

Additional observations from a re-analysis of the deposited data

Results flagged for a closer look

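In 3 of 4 measures, the Tcf-1 RV against Empty RV contrast had opposite signs under the 2 day tags, in every pair of libraries of the same replicate number. The 3 measures overlap, since Pcdhb starts are part of the member starts and these lie in the cluster. In the other measure, Pcdhg starts with a peak, the pairs differed by 2 and 0 on day 2 and by -2 and 0 on day 4. For peaks in the cluster per 10000 peaks, the pairs differed by 1.16 and 0.615 on day 2 and by -0.658 and -0.675 on day 4, so the mean difference moved by -1.56 from day 2 to day 4. For member starts with a peak, the pairs differed by 7 and 4 on day 2 and by -6 and -2 on day 4, a move of -9.5 starts. For Pcdhb starts alone they differed by 4 and 3 on day 2 and by -3 and -2 on day 4, a move of -6. The difference between the tags was not tested, and the tags come from names of the deposited files. Over all merged day 2 regions, 17.7% were held by both Tcf-1 RV and no Empty RV libraries and 0.717% showed the reverse. On day 4 these shares were 2.11% and 3.46%, so the turn was not particular to the cluster. On day 2 the Tcf-1 RV lists were the longer (47623 and 43527 peaks against 22778 and 34601), and on day 4 the order differed between the pairs (36583 against 46819 and 62639 against 58026). No library stood far from the other 3 of its arm in 8 checks, in which chance would flag about 1 in 20.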

How the results depend on the processing

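Of 134 alternatives over 15 results, 97 were labelled the same. For tests this meant the same direction and, where a p existed, the same side of the threshold. For counts it meant a value within a fixed ratio of the main count. The DP share and histone coverage tests could not pass the threshold under any setting. The 34 starts in H3K9me3 (34 to 36), the 0 in H3K27me3 and the difference in coverage (40.5 to 41.8 points) were labelled the same throughout. The Tcf-1 RV minus Empty RV share reversed to -0.184 with 50 kb more on each side, -0.329 with equal lists of widest peaks, -0.268 with peaks of at least 300 bp and -0.667 on day 4, and ran from -0.332 to 0.545 with 1 library left out. Paired by replicate block it was 0.112, the block changed no call, and paired DP and histone values were 0.942 and 41.1. The DP share was -0.287 with peaks of at least 300 bp and 0.457 to 1.43 with 1 library left out. Starts open in any NIH3T3 library were 7 with such peaks, 6 with equal lists, 8 on day 2 and 15 to 17 with 1 library left out. Starts open in both WT libraries were 7 within 5 kb, 1 with wide peaks and 4 to 8 with 1 library left out. Starts open in any DP library were 13, 2 (also 2 with equal lists) and 4 to 8. Summits were 4 in the upper 50% by score, 17 with 50 kb more on each side and 1 at a start. NIH3T3 regions gained were 4 on day 2 and lost 1 on day 4. DP regions lost were 0 with equal lists and 3 to 8 with 1 library left out. The day contrast of Pcdhb starts was 1 with equal lists, 2.75 with wide peaks, 10 in Empty RV and 4 in Tcf-1 RV alone, and 5.92 to 8.25 with 1 library left out, where neither 2 against 2 nor 4 against 3 libraries can pass the threshold. It was 6.5 within 250 bp (exact permutation p = 0.0286). The day contrast, and equal lists and day splits for counts of open starts, were added after seeing the data. Why narrow peaks carry these counts was not tested, and read depth is unknown.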
